A study of Mus musculus with 12 samples.

Results

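The RNA of 10 genes that encode receptors and ligands of the HGF, FGF and EGF families was followed in mouse muscle stem cells (MuSCs). The genes were Met, Hgf, Fgfr1, Fgfr2, Fgfr3, Fgfr4, Egfr, Fgf2, Hbegf and Areg, and each was matched by its exact name to 1 of the 55335 genes in the count files. All 10 were among the 22635 genes with enough reads to be tested. For each of 4 groups 3 libraries were made, all from hindlimb MuSCs of Pax7-ZsGreen mice, 3 to 6 months old, in which the fluorescent protein used for sorting marks cells that express Pax7. F cells were taken fresh from the sort and never cultured. 2d-U and 5d-U cells (the latter titled Control in the labels) were grown uncompressed for 2 and 5 days on plastic coated with Matrigel and fibronectin. 2+3d-C cells (Compressed) were grown for 2 days without load and then for 3 days under a device whose pillars limit the height of the cells. The medium of all 3 cultured groups held added FGF at 10 ng/mL, chicken embryo extract and horse and fetal bovine serum, so the cultures had a supply of growth factors that these RNA counts do not show. Cultured cells were lysed in the dish with no second sort.

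HGF, FGFs and EGF-family ligands are growth factors that bind receptor tyrosine kinases on the cell surface. HGF is kept in the matrix as an inactive precursor, is activated by proteases and binds MET. FGFs bind FGF receptors together with heparan sulfate, and HB-EGF and amphiregulin are membrane-bound ligands that are cut off by proteases before they bind EGFR. All of these receptors signal through adaptors, Ras and the ERK kinases, and HGF and FGF are known for waking MuSCs from quiescence and for driving their division in culture.

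Between 12540745 (2+3d-C replicate 5) and 62424851 reads (2+3d-C replicate 4) were counted per library. F replicates 4 and 5 and 5d-U replicates 1 and 6 stood apart from the rest. On autosomal genes of silent families such as olfactory receptors, their reads per kb of exon were 5.08, 7.25, 3.78 and 0.646, where the other 8 libraries had between 0.0103 and 0.24. This density matters for members with few reads. In 5d-U replicate 1 it would give 93.7% of the Hgf reads, 87.3% of the Fgfr3 reads and more than all of the Fgfr2 reads. Of the reads of Fgfr1 and Egfr in that library it would give 3.33% and 8.9%. The sources do not say which libraries came from different animals or sorts, so p-values measure only the spread between these libraries, which may be technical.

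Compression was followed by more RNA of 4 of the 10 members. Relative to 5d-U, Fgfr1 rose by 5.69 ± 0.63 (log2 fold change ± SE, 3 libraries against 3), Egfr by 4.25 ± 0.73, Fgfr4 by 3.68 ± 0.64 and Hbegf by 1.61 ± 0.43, and no member fell. By the same rule, an adjusted p under 0.05 in the edgeR quasi-likelihood test, 22.6% of all tested genes were called, 9.14% as higher and 13.4% as lower after compression. With 1 library of either group left out, the share called was 11.3% (without 5d-U replicate 6) to 18.9%. The filter passed more genes in these fits (26972 to 27911, beside 22635), so these shares and 22.6% have different bases. The 18.9% was 5267 genes, beside 5110 in the main fit. In 5 members (these 4 and Fgfr3) every compressed library lay above every 5d-U library and in 0 members below, when 12.6% and 29.7% of tested genes did so. The median log2 fold change was 1.91 over the members and −1.05 over all tested genes. This background depends on genes with few reads: among the 10816 genes with 5 CPM or more on average, 21.5% were higher and 21.8% lower with a median of −0.00013, beside 4 higher, 0 lower and a median of 2.59 for the 8 members among them. With silent-family reads subtracted, the medians were 3.10 for the members and −0.24 for all tested genes. With the 4 libraries that stood apart left out (1 library then remained in 5d-U, and its spread was taken from the other groups), Fgfr1 (5.70, adjusted p = 0.0273) and Egfr (5.22, adjusted p = 0.0427) still passed in edgeR, and Fgfr4 (3.20, adjusted p = 0.0991) and Hbegf (2.14, adjusted p = 0.0953) did not. In bulk RNA, a change in the number of cells of one type cannot be told apart from a change in the RNA of each cell.

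**Figure D1:**
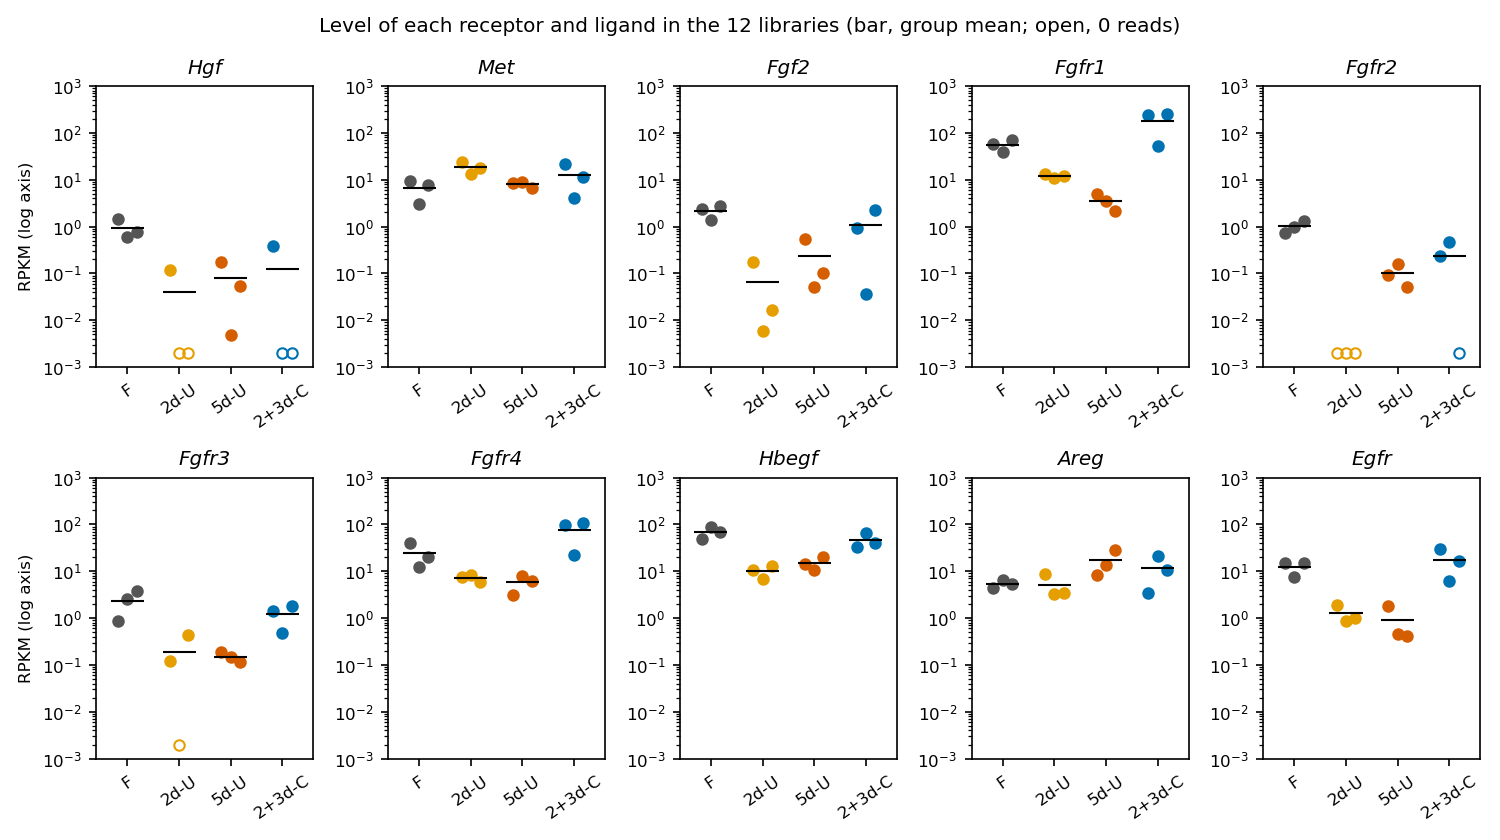
RPKM (reads scaled to exon length and library size, log axis) of the 10 genes in each of the 12 libraries, by group, with the group mean as a bar and libraries with 0 reads as open circles at the bottom of the panel. Fgfr1, Fgfr4, Egfr and Hbegf are high in F, low in 2d-U and 5d-U and high again in 2+3d-C, while Met and Areg do not follow this order.

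**Figure D2:**
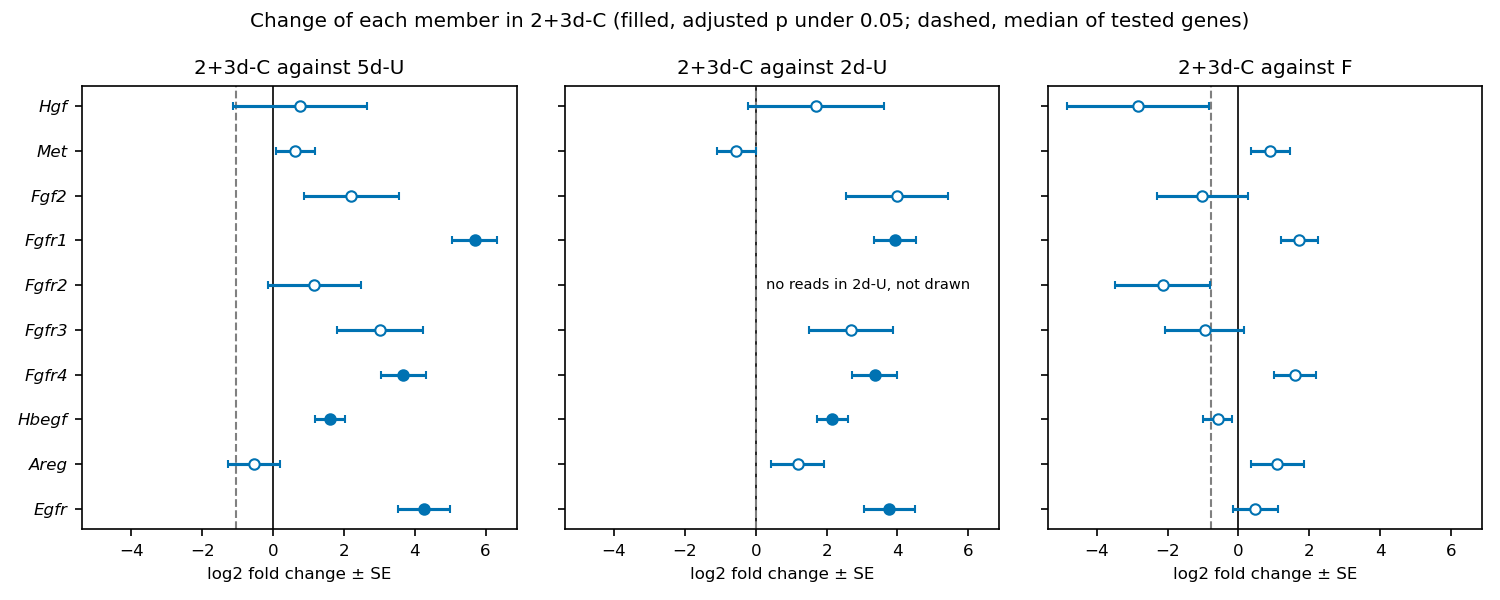
Log2 fold change with its standard error (horizontal bars) of each gene in 2+3d-C relative to 5d-U, 2d-U and F. Filled circles have an adjusted p under 0.05 in edgeR's test and the dashed line is the median of all tested genes (−1.05, 0 and −0.76); Fgfr2 is not drawn against 2d-U, where it had no reads.

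In the HGF pair, the receptor was abundant and the ligand was not. Met (ENSMUSG00000009376.15, chr6:17463800-17573980, plus strand, mm10) encodes the HGF receptor. Its RPKM was 9.42, 3.08 and 7.63 in F replicates 1, 4 and 5, 24.0, 13.3 and 17.5 in 2d-U replicates 1, 2 and 3, 8.54, 8.92 and 6.68 in 5d-U replicates 1, 2 and 6, and 21.8, 4.14 and 11.4 in 2+3d-C replicates 4, 5 and 10. All 3 libraries of 2d-U lay above those of F and of 5d-U, while the range of 2+3d-C covered that of 5d-U. Met was higher in 2d-U than in F by 1.45 ± 0.56 (adjusted p = 0.0486 in edgeR). This call rests on a narrow margin: it was lost without any one of 2d-U replicates 1, 2 and 3 or F replicates 4 and 5 (adjusted p up to 0.151) and with DESeq2 (adjusted p = 0.0757). From 2d-U to 5d-U Met went from 18.3 ± 5.4 to 8.05 ± 1.20 RPKM (mean ± SD, n = 3) without passing (log2 fold change −1.18, adjusted p = 0.143 in edgeR), and in 2+3d-C it was 12.4 ± 8.9 RPKM, 0.63 ± 0.55 above 5d-U on the log2 scale (adjusted p = 0.376 in edgeR).

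Hgf (ENSMUSG00000028864.7, chr5:16553495-16620152, plus strand) lay between 0.604 and 1.48 RPKM in F and under 0.4 RPKM in every cultured library. It had 0 reads in 2d-U replicates 2 and 3 and in 2+3d-C replicates 5 and 10, but 146 reads in 2+3d-C replicate 4, the deepest library. No comparison of Hgf passed the test, and the levels of all cultured groups overlapped. Its means in culture were 0.0395 RPKM at 2 days, 0.0783 at 5 days and 0.127 after compression. The fall from F to 2d-U was −4.53 ± 2.16 on the log2 scale (adjusted p = 0.0918 in edgeR and 0.0453 in DESeq2).

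Among the FGF receptors, Fgfr1 and Fgfr4 made up nearly all of the RNA. Fgfr1 (ENSMUSG00000031565.18, chr8:25513654-25575718, plus strand) encodes the FGF receptor with the broadest tissue distribution. Its RPKM was 57.3, 39.7 and 68.7 in F replicates 1, 4 and 5, 13.4, 10.6 and 11.7 in 2d-U replicates 1, 2 and 3, 4.95, 3.50 and 2.13 in 5d-U replicates 1, 2 and 6, and 236, 51.6 and 258 in 2+3d-C replicates 4, 5 and 10. Every library of 2+3d-C was above every library of 2d-U and 5d-U, and replicate 5 alone lay within the range of F. The fold over 5d-U was 51.5 (log2 fold change 5.69 ± 0.63, adjusted p = 4.1e-05 in edgeR), and that over 2d-U was 15.3 (3.93 ± 0.58, adjusted p = 0.000285). Relative to F, Fgfr1 was lower in 2d-U (−2.21 ± 0.54, adjusted p = 0.00726) and in 5d-U (−3.97 ± 0.58, adjusted p = 0.00041), and the 3.29-fold higher mean of 2+3d-C did not pass (adjusted p = 0.0628 in edgeR). The order of the means was 2+3d-C, F, 2d-U and 5d-U. The step from 2d-U to 5d-U did not pass (adjusted p = 0.0846), although the 2 groups did not overlap.

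Fgfr4 (ENSMUSG00000005320.9, chr13:55152640-55168759, plus strand) encodes the FGF receptor most typical of the myogenic lineage. It was at 41.0, 12.1 and 20.5 RPKM in F replicates 1, 4 and 5, 7.63, 8.15 and 5.98 in 2d-U replicates 1, 2 and 3, 3.11, 8.06 and 6.17 in 5d-U replicates 1, 2 and 6, and 95.0, 21.7 and 106 in 2+3d-C replicates 4, 5 and 10. 2d-U and 5d-U overlapped, and all of 2+3d-C lay above both. The fold in 2+3d-C was 12.8 over 5d-U (3.68 ± 0.64, adjusted p = 0.00118 in edgeR) and 10.2 over 2d-U (3.35 ± 0.63, adjusted p = 0.00174). Fgfr4 was lower than in F in 2d-U (−1.76, adjusted p = 0.0325) and in 5d-U (−2.08, adjusted p = 0.023). The fall to 2d-U did not pass when any one of the 3 2d-U libraries or F replicate 1 or 5 was left out (adjusted p up to 0.0952), and that to 5d-U not without 5d-U replicate 1 or 6 (adjusted p up to 0.0743). Against F, the mean of 2+3d-C was 3.02-fold higher without passing (adjusted p = 0.0978 in edgeR).

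The other receptors of the family were scarce. Fgfr3 (ENSMUSG00000054252.18, chr5:33721674-33737068) ranged from 0.854 to 3.69 RPKM in F and from 0.489 to 1.77 in 2+3d-C, and was at most 0.44 in 2d-U and 0.188 in 5d-U. All 2+3d-C libraries exceeded those of 5d-U, by 3.02 ± 1.21 on the log2 scale, but the difference did not pass in edgeR (adjusted p = 0.082) and did in DESeq2 (adjusted p = 0.0177). Fgfr3 was lower than in F in 2d-U (−3.64 ± 1.24, adjusted p = 0.0327 in edgeR) and in 5d-U (−3.97 ± 1.26, adjusted p = 0.0372). The first call was lost without 2d-U replicate 1 or 2 or F replicate 4 or 5 (adjusted p up to 0.0982) and the other without any one 5d-U library or F replicate 4 or 5 (up to 0.132). The fall to 2d-U was −5.18 without 2d-U replicate 3 and −3.05 without replicate 2, and that to 5d-U was −4.76 without F replicate 1. Its exons share 13.9% of their bases with an antisense gene, and reads were counted without strand. Fgfr2 (ENSMUSG00000030849.18, chr7:130162451-133123350, minus strand) had 0 reads in all 2d-U libraries, between 0.725 and 1.34 RPKM in F and 0.0521 to 0.162 in 5d-U. In 2+3d-C replicates 4, 5 and 10 it was at 0.232, 0.468 and 0 RPKM. Against a floor of 3 reads in each 2d-U library, Fgfr2 was at least 131-fold higher in F (adjusted p = 0.00211 in edgeR) and at least 30.0-fold higher in the mean of 2+3d-C (adjusted p = 0.00581). The latter groups overlapped, since 2+3d-C replicate 10 also had 0 reads, and without replicate 5 the bound was 15.0-fold. In a fit of 2d-U and 2+3d-C alone, Fgfr2 had reads in too few libraries to be tested. The locus of Fgfr2 in the files overlaps 69 other genes, but 3.04% of its exon bases are shared, all with Ctbp2.

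The FGF receptor RNA as a whole was low in culture and high under compression. The summed RPKM of Fgfr1 to Fgfr4 was 83.2 ± 24.2 in F, 19.4 ± 1.6 in 2d-U, 9.56 ± 2.00 in 5d-U and 257 ± 160 in 2+3d-C (mean ± SD, n = 3). Fgfr1 held 70.4% ± 0.7 of this sum in 2+3d-C, with 70.9%, 69.5% and 70.6% in replicates 4, 5 and 10, although the sum itself differed between 74.2 and 366 RPKM among them. In F it held 57.4%, 71.8% and 72.9%, and in 2d-U 56.6% to 64.6%. In 5d-U it held 59.4% in replicate 1 and 29.5% and 25.2% in replicates 2 and 6, in which Fgfr4 held 67.9% and 72.8%. Fgfr4 was thus the more abundant of the pair in 2 of the 12 libraries, both of 5d-U. The shares were not tested. An exact permutation test of 3 libraries against 3 cannot go below p = 0.1.

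**Figure D3:**
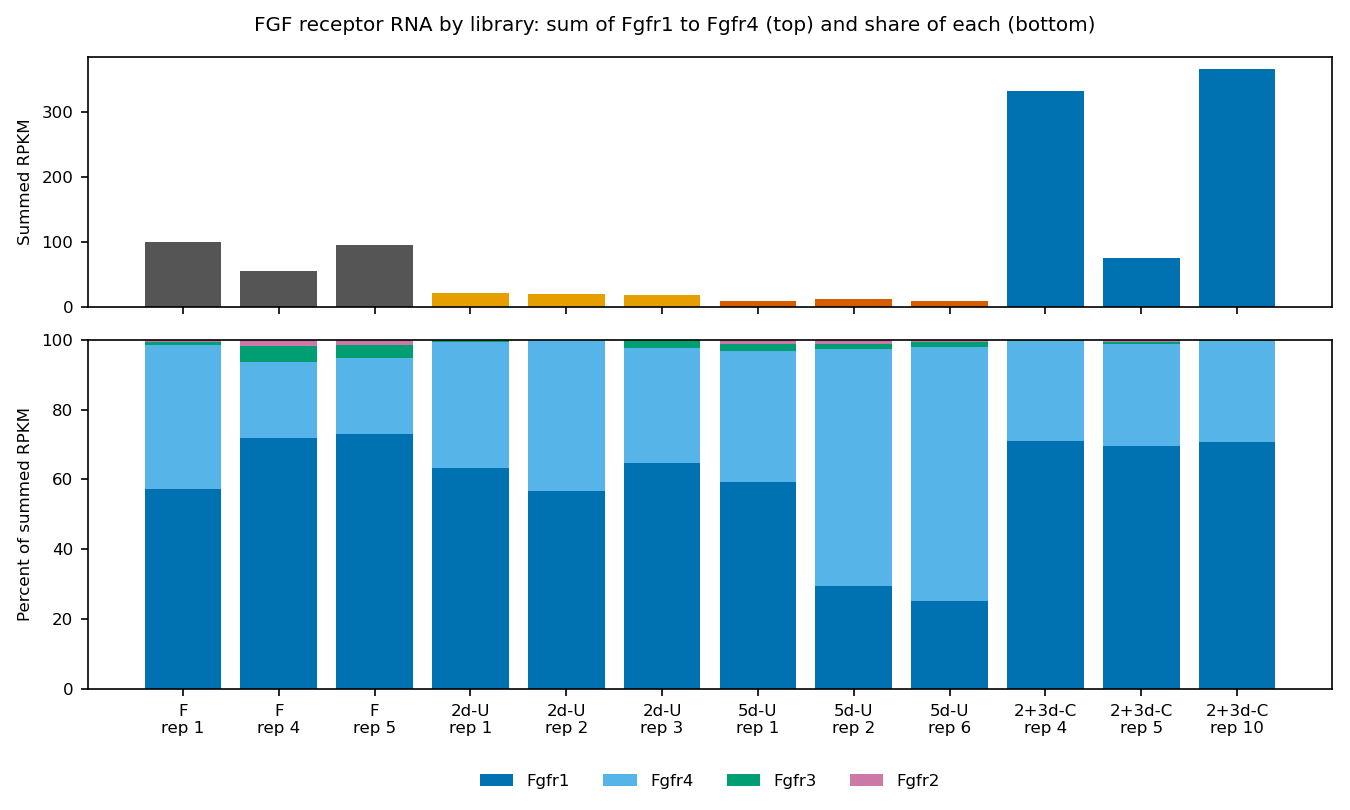
Summed RPKM of the 4 FGF receptors in each library (top, bars coloured by group) and the percent of this sum held by each receptor (bottom). The 2+3d-C libraries differ in the sum (74.2 to 366) but hold nearly the same share of Fgfr1 (69.5% to 70.9%), while 5d-U replicates 2 and 6 are mostly Fgfr4.

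Fgf2 (ENSMUSG00000037225.13, chr3:37348346-37410108, plus strand) encodes the basic FGF that is stored on heparan sulfate around cells. It was at 2.37, 1.38 and 2.81 RPKM in F replicates 1, 4 and 5, at 0.00578 to 0.176 in 2d-U, at 0.0514 to 0.545 in 5d-U, and at 0.937, 0.0356 and 2.25 in 2+3d-C replicates 4, 5 and 10. The fall from F to 2d-U passed (−5.01 ± 1.51, adjusted p = 0.0204 in edgeR), and the call was lost without 2d-U replicate 2 (adjusted p = 0.055) or 3 (adjusted p = 0.0597), while without 2d-U replicate 1 the fall was −7.47. The 2+3d-C libraries were spread widely, with replicate 10 in the range of F, replicate 5 in that of 2d-U and replicate 4 between them, and the difference from 5d-U did not pass (2.21 ± 1.34, adjusted p = 0.2). That from 2d-U was 3.99 ± 1.44 (adjusted p = 0.0562 in edgeR, 0.00806 in DESeq2, 0.00353 in edgeR with no filter and 0.0457 among genes with 5 CPM or more on average). The difference from 2d-U was 2.88 to 6.46 with 1 library of either group left out (adjusted p from 0.0163 to 0.148 in edgeR). It was 0.955, without passing, with the replicate number as a block. Below F, Fgf2 in 5d-U passed in DESeq2 (adjusted p = 0.0196) and not in edgeR (−3.23 ± 1.39, adjusted p = 0.125). Fgf2 shares 13.2% of its exon bases with other genes, among them Nudt6 on the opposite strand.

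In the EGF family the receptor and Hbegf rose with compression, and Areg did not pass. Egfr (ENSMUSG00000020122.16, chr11:16752203-16918158, plus strand) was at 14.8, 7.38 and 15.1 RPKM in F replicates 1, 4 and 5, 1.93, 0.885 and 0.998 in 2d-U replicates 1, 2 and 3, 1.85, 0.465 and 0.415 in 5d-U replicates 1, 2 and 6, and 29.2, 6.07 and 16.7 in 2+3d-C replicates 4, 5 and 10. The uncompressed cultures overlapped each other and lay below every library of F and 2+3d-C, which also overlapped each other. With compression Egfr was 19.1-fold above 5d-U (4.25 ± 0.73, adjusted p = 0.00107 in edgeR) and 13.6-fold above 2d-U (3.77 ± 0.72, adjusted p = 0.00179). It was lower than in F in 2d-U (−3.29 ± 0.70, adjusted p = 0.00337) and in 5d-U (−3.77 ± 0.72, adjusted p = 0.00191). The rise over 5d-U was 12.5-fold without 2+3d-C replicate 4 and 39.1-fold without 5d-U replicate 1, that over 2d-U was 8.89-fold without 2+3d-C replicate 4, and the fall to 5d-U was −4.80 without 5d-U replicate 1. Relative to F, the difference of 2+3d-C was 0.48 ± 0.64 (adjusted p = 0.635 in edgeR).

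Hbegf (ENSMUSG00000024486.6, chr18:36504927-36515805, minus strand) encodes HB-EGF, a heparin-binding ligand of EGFR and ERBB4. It was at 49.4, 87.4 and 68.7 RPKM in F replicates 1, 4 and 5, 10.8, 6.90 and 12.9 in 2d-U replicates 1, 2 and 3, 14.4, 10.4 and 20.0 in 5d-U replicates 1, 2 and 6, and 32.2, 64.6 and 40.0 in 2+3d-C replicates 4, 5 and 10. The uncompressed cultures overlapped each other, and F and 2+3d-C lay above both. With compression Hbegf was 3.06-fold above 5d-U (1.61 ± 0.43, adjusted p = 0.0146 in edgeR) and 4.47-fold above 2d-U (2.16 ± 0.43, adjusted p = 0.00267). Against 5d-U the call was lost without 5d-U replicate 2 (adjusted p = 0.0663). Hbegf was lower than in F in 2d-U (−2.75 ± 0.44, adjusted p = 0.000617) and in 5d-U (−2.20 ± 0.44, adjusted p = 0.00243; −2.83 without F replicate 1).

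Areg (ENSMUSG00000029378.5, chr5:91139599-91148432, plus strand) encodes amphiregulin, another ligand of EGFR. It was at 4.38, 6.53 and 5.37 RPKM in F replicates 1, 4 and 5, 8.76, 3.19 and 3.46 in 2d-U replicates 1, 2 and 3, 8.38, 13.7 and 28.9 in 5d-U replicates 1, 2 and 6, and 3.40, 21.0 and 10.7 in 2+3d-C replicates 4, 5 and 10. Its mean was highest in 5d-U (17.0 ± 10.6), all 3 libraries of which lay above those of F. No comparison of Areg passed the test. The proportion of the ligands differed between libraries. The ratio of Hbegf to Areg was 11.3, 13.4 and 12.8 in F replicates 1, 4 and 5, 1.23, 2.16 and 3.72 in 2d-U replicates 1, 2 and 3, 1.71, 0.757 and 0.692 in 5d-U replicates 1, 2 and 6, and 9.47, 3.08 and 3.73 in 2+3d-C replicates 4, 5 and 10. Hbegf exceeded Areg in 10 of 12 libraries, and the 2 exceptions were again 5d-U replicates 2 and 6.

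The 250 bases before the start of Egfr, which rose in 2+3d-C, and of its ligand Areg, which was not called, are shown to let the upstream sequence of the pair be compared. The promoters are those of RefSeq on GRCm38.p6, the assembly of mm10, at chr11:16751953-16752202 (Egfr) and chr5:91139349-91139598 (Areg), both on the plus strand, and end at the base before the first base of the gene in the files. Capitals mark the letters of 4 motifs searched on both strands: the E-box CANNTG bound by myogenic factors, the AP-1 site TGANTCA, the cAMP response element TGACGTCA and the GC box GGGCGG.
Egfr: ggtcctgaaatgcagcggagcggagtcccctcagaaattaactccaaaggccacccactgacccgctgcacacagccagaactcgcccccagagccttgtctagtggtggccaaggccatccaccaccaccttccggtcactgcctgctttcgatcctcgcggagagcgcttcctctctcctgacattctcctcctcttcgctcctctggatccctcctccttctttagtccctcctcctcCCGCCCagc
Areg: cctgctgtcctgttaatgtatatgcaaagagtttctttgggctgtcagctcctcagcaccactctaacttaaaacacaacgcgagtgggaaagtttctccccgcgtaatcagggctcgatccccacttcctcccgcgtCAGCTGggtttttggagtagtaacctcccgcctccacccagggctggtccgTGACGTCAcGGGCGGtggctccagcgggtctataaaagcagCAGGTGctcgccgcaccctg
The Egfr window held 1 GC box and none of the other motifs. The Areg window held 2 E-boxes, 1 cAMP response element and 1 GC box. Of 32851 promoters of this length, 66.2% held an E-box, 6.75% an AP-1 site, 1.55% a cAMP response element and 32.7% a GC box. In Fgfr4 the window held 2 E-boxes and 2 GC boxes, but its RefSeq start lies 178 bases inside the gene as the files define it.

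Compared with the 2-day culture, compressed cells had 5 members higher (Fgfr1, Fgfr2, Fgfr4, Egfr and Hbegf) and 0 lower. Beside them, 24.6% of tested genes were called, 16% as higher and 8.63% as lower. Fgfr2 could be tested only through its reads in F and 5d-U. In a fit of 2d-U and 2+3d-C alone 8 members were tested, and Fgfr2 was not among them. The share of all tested genes called was 13.5% without 2d-U replicate 2, and up to 20.0% without any other single library of either compared group. In 5 members (Fgfr1, Fgfr3, Fgfr4, Egfr and Hbegf) the compressed libraries all lay above those of 2d-U and in 0 below, beside 18.1% and 17.4% of tested genes. Without the 4 libraries that stood apart, Fgfr1, Fgfr4, Egfr and Hbegf kept this call and Fgfr2 did not (adjusted p = 0.0761 in edgeR).

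Compared with F, 0 of the 10 members were called after compression in edgeR (2 at an unadjusted p under 0.05, and 0 in DESeq2), beside 6.4% of tested genes called, 1.94% as higher and 4.47% as lower. That share was 36.3% without F replicate 1, 1.04% without F replicate 4 and 1.34% without F replicate 5, and 2.33% without 2+3d-C replicate 5 and 3.12% without replicate 10. Hgf and Fgfr2 lay below F in all 3 libraries and 0 members above, beside 18.3% and 8.79% of tested genes. Without 2+3d-C replicate 5, both Fgfr1 (2.17, adjusted p = 0.0147) and Fgfr4 (2.05, adjusted p = 0.0481) were above F in edgeR, and without F replicate 1 Fgfr4 was (2.08, adjusted p = 0.0408).

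In the first 2 days of culture, 1 member (Met) rose and 7 (Fgfr1, Fgfr2, Fgfr3, Fgfr4, Fgf2, Egfr and Hbegf) fell relative to F, beside 43.8% of tested genes called, 10.6% as higher and 33.3% as lower. Without any one 2d-U or F library other than F replicate 1, 18.6% (2d-U replicate 2) to 23.4% (F replicate 4) were called, and without F replicate 1 59.6%. Met lay above F in all 3 libraries and 8 members (those that fell, and Hgf) below, beside 20.4% and 32.1% of tested genes. Without the 4 libraries that stood apart, which leaves 1 library of F, Egfr (−3.52, adjusted p = 0.0304) and Hbegf (−2.26, adjusted p = 0.0349) still passed in edgeR. The other 6 did not pass, at log2 fold changes of −2.25 for Fgfr1, −2.48 for Fgfr4, −5.12 for Fgf2, −2.16 for Fgfr3 and 0.98 for Met, and with Fgfr2 at 0 reads in 2d-U as before. In that fit 6.69% of all genes were lower and 2.09% higher. From 2d-U to 5d-U, 0 members were called in edgeR (3 at an unadjusted p under 0.05, and 2 in DESeq2), beside 2.12% of tested genes, 1.87% as higher and 0.243% as lower. With 1 library of either group left out, 0.565% (2d-U replicate 3) to 3.03% (5d-U replicate 2) of tested genes were called. Fgfr2 lay above without overlap and Met and Fgfr1 below, beside 31.7% and 5.4% of tested genes. After 5 days, 5 members (Fgfr1, Fgfr3, Fgfr4, Egfr and Hbegf) were lower relative to F and 0 higher, beside 20.5% of tested genes called, 8.9% as lower and 11.6% as higher. The share called was 11.2% (without 5d-U replicate 6) to 16.1% (without 5d-U replicate 1) with 1 library of either group left out. Areg lay above F without overlap and 8 members below, beside 21.4% and 22.8% of tested genes. Without the 4 libraries, which leaves 1 library in F and 1 in 5d-U, 0 of these 5 passed, at log2 fold changes of −4.02 for Fgfr1, −4.99 for Egfr, −2.25 for Hbegf, −2.34 for Fgfr4 and −2.54 for Fgfr3, beside 0.897% of all genes in that fit, 0.617% as lower. These comparisons share libraries, so their lists of members are not independent of each other.

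Within 2+3d-C, replicate 5, the shallowest library, had the lowest Fgfr1, Fgfr4, Egfr, Met, Fgfr3 and Fgf2 of the 3 and the highest Hbegf, Areg and Fgfr2. Without it, the 4 members called against 5d-U remained called in edgeR. Across the 12 libraries, log2 CPM of Fgfr1 had a Pearson correlation of 0.946 with that of Egfr and 0.909 with that of Fgfr4. These values are a description of 12 libraries that fall into 4 groups. Of 10279 tested genes that averaged 5 CPM or more, leaving out those named only by a clone or model number, pseudogenes and mitochondrial genes, those most like Fgfr1 were Il17ra (r = 0.986), Spsb1 (0.983) and Stk40 (0.983). Those most like Egfr were Sbno2 (0.986), Jag1 (0.981) and Map3k6 (0.978), those most like Fgfr4 were Klhl26, Tmem248 and Edem1 (0.967, 0.967 and 0.961), and those most like Hbegf were Cxcl10, Olfml3 and Tmem100 (0.979, 0.975 and 0.974). Those most like Fgfr3 and Fgf2 were Tns2, Dock9 and Dtx3l and Unc13b, Ncoa2 and Depp1. Areg was most like Bckdha (0.934), Arrdc1 and C1qtnf3. Met had no gene above 0.903 (Klhdc10, followed by Fam83g and Dis3), and its own correlation with Fgfr1 was 0.0726. Hgf and Fgfr2 averaged under 5 CPM and were not compared.

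The other genes of these pathways were followed in 11 lists with 122 genes, of which 115 could be tested. After compression 27 rose and 9 fell relative to 5d-U (23.5% and 7.83%), beside the 9.14% and 13.4% of all tested genes given above. Of the 82 with 5 CPM or more on average, 32 rose and 7 fell (39.0% and 8.54%), beside 21.5% and 21.8% of all such genes. Without the 4 libraries that stood apart, 8 rose (Fgf16, Sdc4, Errfi1, Rps6ka3, Spry1, Egr1, Myc and Fosl1) and 3 fell (Sulf2, Hras and Ccnd1) of 110 tested (7.27% and 2.73%), beside 2.18% and 3.72% of all genes in that fit. The median log2 fold change of a list ranged from −1.18 (further FGF ligands) to 1.55 (other ErbB receptors and receptor inhibitors) beside −1.05 for all tested genes.

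Among further FGF ligands, 1 of 15 tested genes rose and 1 fell (median log2 fold change −1.18), and 1 rose and 0 to 1 fell with 1 library of either group left out. Fgf16 rose from 0.0212 to 0.344 RPKM in 5d-U to 5.24 to 13.9 in 2+3d-C (5.32 ± 1.10, adjusted p = 0.00343 in edgeR), and Fgf15 fell from 0.064 to 0.256 RPKM to 0 in all 3 libraries (adjusted p = 0.0487). Fgf10 was also at 0 in 2+3d-C, without passing (adjusted p = 0.0869). The most abundant of the list, Fgf21 (0 to 5.08 RPKM in 2+3d-C) and Fgf18 (0.0385 to 8.65), did not pass. Of 9 co-receptors and binding proteins, Il17rd, a membrane inhibitor of FGF receptor signaling, rose (3.06 ± 0.89, adjusted p = 0.023), and Fgfbp1, a secreted carrier of FGFs, fell from 3.24 to 5.94 RPKM to 0 to 0.679 (−4.05 ± 1.28, adjusted p = 0.0351). In these 9 genes, 0 to 1 rose and 0 to 1 fell with 1 library of either group left out. Klb, a co-receptor of endocrine FGFs, was at 0 in 2+3d-C without passing (adjusted p = 0.107). The decoy receptor Fgfrl1 was at 6.04 to 13.5 RPKM in 2+3d-C and 4.28 to 13.0 in 5d-U (adjusted p = 0.705).

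Of 13 tested genes of heparan sulfate proteoglycans, which present FGFs and HGF, and of their enzymes, 3 rose and 1 fell. Sdc4, a heparan sulfate proteoglycan of the cell surface, went from 51.2 to 72.9 RPKM in 5d-U to 1247 to 2477 in 2+3d-C (5.01 ± 0.51, adjusted p = 2.3e-05 in edgeR). Gpc1, a membrane-anchored glypican, rose by 1.86 ± 0.62 (adjusted p = 0.044) with overlapping groups. The sulfatases that trim heparan sulfate went opposite ways: Sulf1 rose by 6.12 ± 0.81 (adjusted p = 0.000156) and Sulf2 fell by 8.26 on the log2 scale (adjusted p = 7.7e-05), to between 0 and 0.0234 RPKM.

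Of the 11 genes of HGF activation and its sister pathway, 2 rose and none fell. Plat, the tissue plasminogen activator, went from 0.274 to 0.495 RPKM in 5d-U to 68.4 to 205 in 2+3d-C (8.44 ± 1.52, adjusted p = 0.00141 in edgeR), and was at 78.2 to 102 in F. Plaur, the receptor of urokinase, went from 57.7 to 114 RPKM to 251 to 1672 (3.24 ± 0.65, adjusted p = 0.00267). Spint1, an inhibitor of HGF activator, was at 0 to 0.00678 RPKM in 2+3d-C and 0.252 to 0.354 in 5d-U (adjusted p = 0.0579).

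On the side of EGFR, 1 further ligand, 2 inhibitors and 2 shedding factors rose. Of 9 other EGF-family ligands, Ereg rose (0.542 to 5.42 RPKM in 2+3d-C, 0.0948 to 0.2 in 5d-U, 4.33 ± 1.22, adjusted p = 0.0205 in edgeR) and Nrg2, a ligand of other ErbB receptors, fell from 0.194 to 0.222 RPKM to 0 to 0.00597 (adjusted p = 0.0329). Among these ligands, 0 to 1 rose and 0 to 1 fell with 1 library of either group left out. Epgn (0 to 0.685 RPKM in 2+3d-C) and Nrg3 (0 to 0.00275) did not pass. Of 7 other ErbB receptors and receptor inhibitors, both genes that rose encode inhibitors, and 2 to 4 rose with 1 library of either group left out. Errfi1, a cytoplasmic inhibitor of EGFR that is induced by its signaling, went from 126 to 174 RPKM at 5 days without load to 2213 to 4374 with compression, and was at 601 to 1833 in F (4.39 ± 0.51 over 5d-U, adjusted p = 5.6e-05). Lrig1, a membrane protein that promotes the degradation of ErbB receptors and MET, went from 1.30 to 4.76 RPKM to 14.0 to 84.8 (3.97 ± 0.73, adjusted p = 0.00157). Its relative Lrig2 did not pass (1.55 ± 0.61, adjusted p = 0.0787). Among the 6 shedding genes, the inactive rhomboids Rhbdf1 (2.09 ± 0.46, adjusted p = 0.00486) and Rhbdf2 (4.63 ± 1.10, adjusted p = 0.00795) rose, which guide the protease ADAM17 to the surface. The proteases did not pass, with Adam17 at 4.12 to 10.5 RPKM in 2+3d-C and 3.38 to 10.3 in 5d-U, Adam9 at 7.07 to 25.4 and 4.90 to 18.2, and Adam12 at 0 to 0.509 and 0.191 to 1.5.

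Of 14 receptor adaptors 4 rose and none fell: Gab1 (4.07 ± 0.73, adjusted p = 0.00135 in edgeR), Gab2 (3.64 ± 1.18, adjusted p = 0.0393), Shc1 (2.02 ± 0.41, adjusted p = 0.00291) and Frs2, the docking protein of FGF receptors (2.13 ± 0.68, adjusted p = 0.037). Adaptors that rose were 2 to 5, and those that fell 0 to 1, with 1 library of either group left out. Of the 2 most abundant adaptors, Grb2 was at 126 to 199 RPKM in 2+3d-C and 24.2 to 110 in 5d-U (adjusted p = 0.0667), and Crk at 49.8 to 87.7 and 21.7 to 47.6 (adjusted p = 0.0814). In both, the groups did not overlap. The Ras and ERK kinases were divided, and 3 to 4 rose and 1 to 2 fell with 1 library of either group left out. Hras fell from 35 to 94.4 RPKM to 7.54 to 16.7 (−2.34 ± 0.46, adjusted p = 0.00256) and Nras also fell (−1.38 ± 0.37, adjusted p = 0.015), while Braf (2.77 ± 0.64, adjusted p = 0.00705), Map2k1 (1.69 ± 0.41, adjusted p = 0.00911) and Rps6ka3, the kinase RSK2 downstream of ERK (3.53 ± 0.53, adjusted p = 0.000385), rose.

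Downstream of the receptors, 4 of 10 tested feedback inhibitors rose and 1 fell. Spry1, which blocks Ras activation by receptor kinases, went from 4.19 to 7.83 RPKM at 5 days without load to 216 to 311 with compression, and was at 57.5 to 116 in F (5.54 ± 0.47 over 5d-U, adjusted p = 6.4e-06 in edgeR). Spred1 (3.96 ± 0.70, adjusted p = 0.0012), Dusp5, a nuclear phosphatase of ERK (2.50 ± 0.53, adjusted p = 0.0039), and Spry4 also rose, and Dusp4 fell (−2.51 ± 0.60, adjusted p = 0.00823). Of 9 ERK target genes 4 rose and 2 fell. Egr1, an early-response transcription factor, went from 1.94 to 13.6 RPKM to 1203 to 2295 (7.74 ± 0.80, adjusted p = 2.5e-05) and Myc from 43.1 to 138 to 1285 to 2769 (4.76 ± 0.58, adjusted p = 7.7e-05). Fosl1 and Ier3 rose as well. Ccnd1, which encodes cyclin D1 and drives entry into the cell cycle, fell from 55.4 to 239 RPKM to 0.456 to 4.90 (−5.54 ± 0.85, adjusted p = 0.000474), and Etv4 fell by 3.51 on the log2 scale (adjusted p = 0.008). Etv4 is known as a target of FGF signaling.

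**Figure D4:**
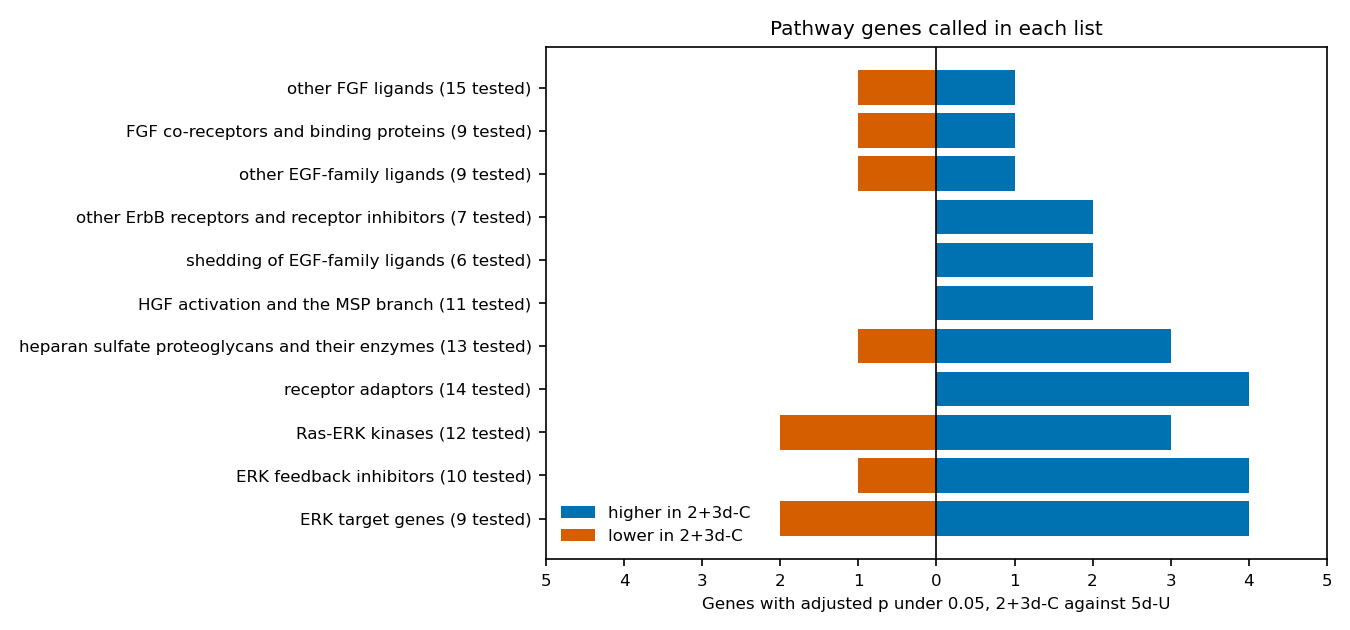
Number of genes in each of the 11 pathway lists called higher (right) or lower (left) after compression relative to 5d-U by edgeR's test, with the number tested beside each name. In all, 27 genes were higher and 9 lower, and every list had at least 1 gene higher.

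In the same 115 genes, 34 were higher and 9 lower after compression relative to 2d-U (29.6% and 7.83%, beside 16% and 8.63% of all tested genes). The number higher was 22 without 2+3d-C replicate 4 (18.8%, beside 10.5% of all genes) and 23 without 2d-U replicate 2 or 3. It was 13 with the replicate number as a block (11.3%, beside 4.82%), although the compared groups share no replicate number. Relative to F, 5 were higher and 5 lower (4.35% each, beside 1.94% and 4.47%), and without the 4 libraries that stood apart 0 and 0, beside 0% and 0.0985%. Without F replicate 1 they were 9 and 21 (4.27% and 32% of all genes), and without F replicate 4 or 5 they were 1 and 1. Those above F were Errfi1 (1.62 ± 0.46, adjusted p = 0.0485 in edgeR), Spry1 (1.72 ± 0.39, adjusted p = 0.0254), Myc (2.06 ± 0.51, adjusted p = 0.0328), Fosl1 and Map2k2, and those below were Fgf7, Nrg2, Spint1, Mst1r and Sulf2, of which Fosl1, Map2k2, Fgf7 and Mst1r are named here after their values were seen. In 2d-U relative to F, 55 of the 115 were lower and 5 higher (Hras, Nras, Map2k2, Etv4 and Ccnd1), which is 47.8% and 4.35%, beside 33.3% and 10.6% of all tested genes. Without the 4 libraries these were 12 and 1 of 110 (10.9% and 0.909%), beside 6.69% and 2.09%, and without 2d-U replicate 1, 2 or 3 or F replicate 5 the number lower was 36, 31, 30 or 34. Ccnd1 rose there by 3.73 ± 0.78 (adjusted p = 0.00312) and Egr1 fell by 6.30 on the log2 scale (adjusted p = 7.2e-05). From 2d-U to 5d-U, 3 of them rose in edgeR (Nrg1, Sulf2 and Spry2), 2.61% beside 1.87% of all tested genes. This number was 0 without 2d-U replicate 3 (beside 0.525% of all genes) and 5 without 5d-U replicate 2 (4.27% beside 2.85%). It was 1 without 2d-U replicate 1 or 2 or 5d-U replicate 6. In 5d-U relative to F, 27 were lower and 5 higher (23.5% and 4.35%, beside 8.9% and 11.6%). Without 5d-U replicate 6, 17 were lower and 3 higher (14.5% and 2.56%, beside 4.82% and 6.38% of all genes). The number higher was also 3 without F replicate 1, 4 or 5. The fit without the 4 libraries leaves 1 library in F and 1 in 5d-U, and fewer of these genes passed in it in either direction.

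Markers of some other cell types also rose with compression. In the endothelial, fibroadipogenic, glial and erythroid lists, the sum of every compressed library exceeded that of every uncompressed culture. In the immune, smooth muscle and pericyte, and myofiber lists, the sums of the compressed libraries overlapped those of 5d-U. Summed RPKM of 7 endothelial markers was 233, 307 and 408 in F replicates 1, 4 and 5, 76.5, 127 and 50.3 in 2+3d-C replicates 4, 5 and 10, and at most 3.41 in 2d-U and 7.99 in 5d-U. Cldn5 was the most abundant of these, at 15.7 to 103 RPKM in 2+3d-C, and 5 of the 7 rose relative to 5d-U. Of 8 fibroadipogenic markers, 4 rose after compression relative to 5d-U, with sums of 245, 412 and 230 RPKM in 2+3d-C against 6.52 to 34.9 in the uncompressed cultures and 634 to 1751 in F. Dcn, their most abundant gene over all libraries, was at 26.4 to 75.2 RPKM in 2+3d-C, where Dpt reached 218. Pdgfra, which defines these cells, was at 0.00912 to 0.849 RPKM in 2+3d-C and 2.13 to 15.6 in F. Its 5d-U levels, 0.0522 to 0.382 RPKM, lay within the range of 2+3d-C. The mean sum of 2d-U, 30.8 RPKM, was mostly Cd34 (29.4). That of 2+3d-C, 296 RPKM, was mostly Dpt (161, and 71.1 in F). Of 6 glial markers 3 were higher, with sums of 87.5, 114 and 86.8 in 2+3d-C against 13.9 to 19.0 in 5d-U. Of 7 smooth muscle and pericyte markers 5 were higher, but their sum was highest in 5d-U replicate 6 through Acta2. All 5 erythroid markers were higher, with sums of 128, 417 and 32.9 RPKM in 2+3d-C replicates 4, 5 and 10, 195 to 866 in F and at most 0.517 in the uncompressed cultures, and Hbb-bs at 10.7 to 175 in 2+3d-C. Of 10 immune markers none was higher and 1 was lower, Ptprc, which defines leukocytes and was at 0 in all 3 libraries of 2+3d-C, although S100a9 reached 119 RPKM in replicate 5. In 5d-U replicate 1 immune markers summed to 169 RPKM. Of 7 myofiber markers, led by Acta1 (15.9 to 77.6 RPKM in 2+3d-C and 98.6 to 947 in 5d-U), 1 rose and 2 fell relative to 5d-U, with sums of 42.7, 124 and 34.3 RPKM in 2+3d-C replicates 4, 5 and 10 against 103, 940 and 1610 in 5d-U replicates 1, 2 and 6.

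The muscle stem cell markers were present in all groups, and Calcr alone had 0 reads in 3 libraries of the uncompressed cultures. After compression 5 of 8 such markers rose relative to 5d-U and none fell, with Myod1, which marks activated and dividing myogenic cells, at 2235 to 4548 RPKM in 2+3d-C, 604 to 1278 in 5d-U and 297 to 597 in F, and Pax7 at 10.3 to 15.1 RPKM in 2+3d-C, 2.45 to 5.74 in 5d-U and 1.52 to 3.68 in F. The part of other cells in the rise of the receptors and ligands was not tested. The mean of 2+3d-C as a percent of that of F was 26.8% for the endothelial sum, 21.6% for the fibroadipogenic sum, 68.3% for the glial sum, 47.7% for the smooth muscle and pericyte sum, 42.1% for the erythroid sum, 7.24% for the immune sum, 7.96% for the myofiber sum and 492% for the muscle stem cell sum, or 230% with its most abundant gene, Myod1, left out. The endothelial sum was at 14.7% without Cldn5 and the smooth muscle and pericyte sum at 20.9% without Acta2. It was 329% for Fgfr1, 302% for Fgfr4, 139% for Egfr and 66.6% for Hbegf. Within 2+3d-C, replicate 5 had the highest sum of every marker list except that of smooth muscle and pericytes, the muscle stem cell list included (5184 RPKM, against 3550 in replicate 4 and 2879 in replicate 10). The same library had the lowest Fgfr1, Fgfr4 and Egfr and the highest Hbegf.

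**Figure D5:**
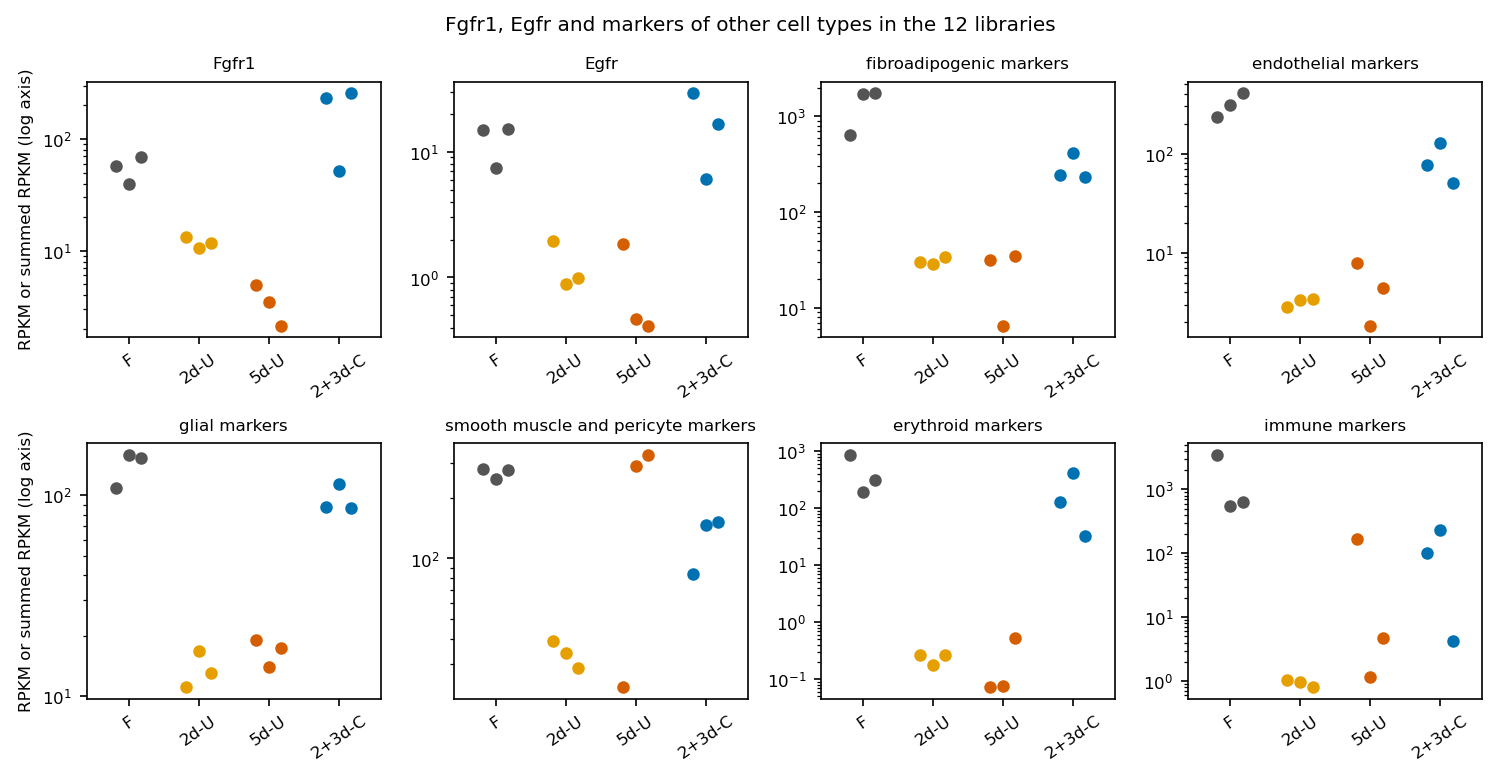
RPKM of Fgfr1 and Egfr and summed RPKM of 6 marker lists (log axes, each panel with its own range) in the 12 libraries by group. Endothelial, fibroadipogenic, glial and erythroid markers are high in F and 2+3d-C and low in 2d-U and 5d-U, and within 2+3d-C the library with the lowest Fgfr1 (51.6) has the highest sums.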

How the data were processed

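RNA was reverse-transcribed and amplified with a SMART-Seq kit and read from one end. The authors aligned reads with the nf-core RNA-seq pipeline to mm10 and deposited counts per gene, made with featureCounts 1.6.4 on the exons of GENCODE M23 without regard to strand and without normalization. A merged table held identical counts in its 12 columns. Counts were fitted in R 4.3.3 with edgeR 4.0.16: genes passing filterByExpr (22635), TMM scaling, a single quasi-likelihood model of group means over 12 libraries, two-sided tests, Benjamini-Hochberg adjustment over all tested genes, called under 0.05. Levels are RPKM, from exon lengths in the files and library sizes scaled by TMM. Alternatives were DESeq2 1.42.0, library size without TMM, no filter, a mean of at least 5 CPM, the 2 groups alone, the replicate number as a block, subtraction of or a term for the silent-family reads (1549 autosomal genes), and each library left out. A fit without the 4 libraries above 0.5 such reads per kb was added after the data were seen. With a library left out the filter was run anew and 22743 to 27915 genes were tested, so shares called there have another base. In simulated data for 2+3d-C against 5d-U with 200 of 19880 genes changed, 63 of 64 calls were changed genes (31.5% recovered). Unchanged genes had the same mean in all simulated libraries and no silent-family reads were added. These rates need not hold for the real comparison.

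The members, gene lists and rules were chosen with earlier results of these data known, so no list was tested as a set. Named were all members, of each pathway list the 2 most abundant genes and the 3 whose p (2+3d-C, 5d-U) was smallest, the 3 genes most correlated with a member, and the most abundant or defining genes of marker lists, except where an item is not reported here. Further names (the other called genes, Adam17, Dpt) were chosen after their values were seen.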

Additional observations from a re-analysis of the deposited data

How the results depend on the processing

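Of the 22 calls of members, 1 was lost with DESeq2, 4 with the silent-family term and 11 with the replicate number as a block. For these calls, each library was left out only in comparisons of its own group (9 or 13 calls), and 0 to 4 were lost. The most were lost without the 4 libraries with silent-family reads, a fit with 1 library in F and 1 in 5d-U. Without those 4, a choice made after seeing the data, 2 members were called above 5d-U after compression, 0 were higher and 2 lower in 2d-U against F, and 0 were lower in 5d-U against F, beside 2.18%, 2.09%, 6.69% and 0.617% of all genes in these fits. Each sort was divided among conditions, per the study, so libraries of different groups may share one, but which do is not given, and same-numbered libraries did not deviate together (correlations −0.424 to 0.0322 over 6 pairs). These correlations cover all tested genes and the libraries that stood apart, so they cannot show whether a number marks a shared sort. With the replicate number as a block (2 residual degrees of freedom, 8 without), 12.1% of all tested genes were called in 2d-U against F and 5.57% in 5d-U against F (43.8% and 20.5% without it), 2 members were above 2d-U after compression, 3 lower and 0 higher in 2d-U than in F, 1 higher from 2d-U to 5d-U and 3 lower in 5d-U against F. With the block, Fgfr1, Fgfr4 and Egfr passed against 5d-U and Hbegf did not (0.97, adjusted p = 0.588 in edgeR), and against 2d-U Fgfr2 and Fgfr4 passed and Fgfr1 (adjusted p = 0.0776), Egfr (0.115) and Hbegf (0.545) did not. The 2+3d-C libraries (replicates 4, 5 and 10) share no number with 5d-U (1, 2 and 6) or 2d-U (1, 2 and 3). These blocked contrasts thus run only through F (1, 4 and 5), which shares numbers with each group. Without a filter on low counts, 2 members were above F after compression, and from 2d-U to 5d-U 1 rose and 1 fell. With DESeq2, 0 were higher in 2d-U than in F, and from 2d-U to 5d-U 1 rose and 1 fell. Met was not called in 2d-U, leaving 0 higher, with a mean of at least 5 CPM, with silent-family reads subtracted and with a term for them. In fits of the 2 groups alone, 1 rose and 2 fell from 2d-U to 5d-U, and 1 was higher and 8 lower in 5d-U against F. With each library of the 2 compared groups left out, members higher in 2+3d-C were 3 to 4 against 5d-U, 5 to 6 against 2d-U and 0 to 2 against F. Those higher were 0 to 1 in 2d-U against F and 0 to 1 in 5d-U against 2d-U. Members lower were 4 to 6 in 2d-U and 3 to 5 in 5d-U against F. Of the pathway genes, 13 rose and 7 fell relative to 5d-U with the block (11.3% and 6.09%, beside 3.22% and 13.7% of all tested genes; 27 and 9 without it). With silent-family reads subtracted, the shares of Fgfr2 and Fgfr3 in 5d-U were 0.522% and 0.843%, from 1.03% and 1.62%. Without TMM, the share of calls that were higher was 44.7% (main 64.9%) in 2+3d-C against 2d-U, 10.4% (30.2%) against F and 73.7% (88.5%) in 5d-U against 2d-U. The causes were not tested.

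Fold changes that reversed were all of members not called. With the block, against 5d-U in 2+3d-C, Hgf was −0.15, Fgfr3 −0.89 and Fgf2 −1.16, Areg was −0.047 against 2d-U, Areg 0.56 in 2d-U against F, and Fgfr3 2.46 in 5d-U against 2d-U. In the contrasts of 2+3d-C among these, the groups share no replicate number. Without the 4 libraries, Fgfr3 was 0.52 in 2+3d-C against F, Areg 0.25 in 2d-U against F, Hgf −2.92, Fgfr4 0.14 and Fgf2 −0.38 in 5d-U against 2d-U, and Met −0.070 in 5d-U against F. Areg in 2d-U against F was 0.030 with no filter and 0.23 with the silent-family term. In 5d-U against 2d-U, Fgfr4 was 0.34 with that term and Hgf −1.81 with the reads subtracted. Met in 5d-U against F was −0.11 with DESeq2 and −0.039 with a mean of at least 5 CPM. With each library of the compared groups left out, 2+3d-C against 5d-U ranged from −7.04 to 2.15 for Hgf, −0.061 to 1.04 for Met and −1.28 to 0.069 for Areg, Hgf from −6.10 to 7.80 against 2d-U, Egfr from −0.12 to 0.90 against F, Areg from −0.69 to 0.19 in 2d-U against F, Hgf from −0.46 to 7.05 and Fgfr3 from −0.90 to 1.23 in 5d-U against 2d-U, and Met from −0.075 to 0.39 in 5d-U against F. The causes were not tested.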
